A study of Homo sapiens with 12 samples.

Results

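Integrins are adhesion receptors built from 1 alpha and 1 beta subunit, and the pair decides which matrix protein a cell can bind. The subunits examined were the 10 genes ITGA2, ITGA3, ITGA4, ITGA5, ITGA6, ITGAV, ITGB1, ITGB3, ITGB5 and ITGB8, taken by gene symbol from the 44659 genes of the deposited count table. All 10 passed the filter on low counts, beside 15916 genes tested in all.

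As background, ITGB1 is the shared beta chain for the laminin receptors ITGA3 and ITGA6, the collagen receptor ITGA2, the fibronectin receptor ITGA5 and the fibronectin and VCAM1 receptor ITGA4. ITGAV pairs with ITGB1 and also with ITGB3, ITGB5 and ITGB8, and these pairs bind vitronectin, fibronectin or the latent form of TGF-beta through the RGD peptide motif. Beta subunits connect through talin and kindlin to actin and signal through focal adhesion kinase, and melanoma cells are known for high ITGB3 during invasive growth.

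RNA was sequenced from A375, an established human skin melanoma line, in 4 groups of 3 replicate cultures. Control cells (CC) received DMSO, the solvent, for 72 h, and treated cells (TC) received MAPKi for 72 h, which was 500 nM of the BRAF inhibitor vemurafenib together with 500 nM of the MEK inhibitor cobimetinib. Persister cells (PC) and recovered cells (RC) had the same 72 h of MAPKi, then 2 and 9 days in drug-free medium, with passaging when needed. All groups came from the same line. The 12 libraries hold no DMSO sample kept for 2 or 9 further days, so time in culture cannot be told apart from recovery in PC and RC.

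Library totals ran from 37773389 to 55567097 counts, and normalization factors ran from 0.965 to 1.02. CPM below means the count per gene relative to the TMM-adjusted library total, which is a share of the RNA sequenced: a change in the RNA per cell and a change in cell make-up cannot be told apart. All 8 melanocyte lineage markers examined were tested, and their summed level was 1828 to 2006 CPM in CC, 7224 to 10430 CPM in TC, 3647 to 5256 CPM in PC and 1635 to 1695 CPM in RC. DCT carried most of that sum in TC, at 5261 to 7866 CPM, and in PC, at 1955 to 3177 CPM. In CC it stood at 337 to 444 CPM, below SOX10 at 650 to 664 CPM. DCT, PMEL, SOX10, MLANA and TYR were called higher in TC while S100B was called lower and MITF and S100A1 were not called. The part of these shifts in the integrin results was not tested. Leukocyte markers summed to at most 1.90 CPM in any library, keratinocyte and epithelial markers to at most 2.66 CPM, endothelial markers to at most 6.91 CPM and fibroblast markers to at most 41.8 CPM. Markers at 0 in all 3 CC libraries included CD3E (leukocyte), CDH5 (endothelial) and KRT5 (keratinocyte).

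A gene was called higher or lower at an adjusted p under 0.05 from edgeR's two-sided quasi-likelihood test (Benjamini-Hochberg over 15916 genes), and beyond 1.5-fold where a test against that fold also passed. After 72 h of MAPKi the set split by subunit: ITGA2, ITGA5, ITGA6, ITGAV, ITGB1 and ITGB8 rose while ITGA3, ITGB3 and ITGB5 fell, and ITGA4 did not pass the test. In TC against CC, 6 of 10 subunits were higher, against a background of 33.2% of all genes, and 3 were lower, against 34.7%. Beyond 1.5-fold, 4 were higher (ITGA2, ITGA5, ITGA6 and ITGAV, background 16.1%) and 2 were lower (ITGB3 and ITGB5, background 19.3%).

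At day 2 off drug the pattern was largely still present. In PC against CC, 5 subunits were higher (background 33.2%) and 4 were lower (35.9%), of which 3 rose beyond 1.5-fold (ITGA2, ITGA5 and ITGA6, background 17.2%) and 3 fell beyond it (ITGA3, ITGB3 and ITGB5, background 19.9%). At day 9, in RC against CC, 3 subunits were higher (ITGA5, ITGA6 and ITGB8, background 18.2%) and ITGB5 alone of the 10 was lower (19.1%). ITGB8 rose beyond 1.5-fold (background 1.35%), and 0 of 10 fell beyond it in edgeR's test (background 2.52%), with 1 (ITGB5) at an unadjusted p under 0.05 and 0 by DESeq2. At an unadjusted p under 0.05, 3 rose beyond 1.5-fold (ITGA5, ITGA6 and ITGB8). These comparisons share the CC libraries.

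**Figure D1:**
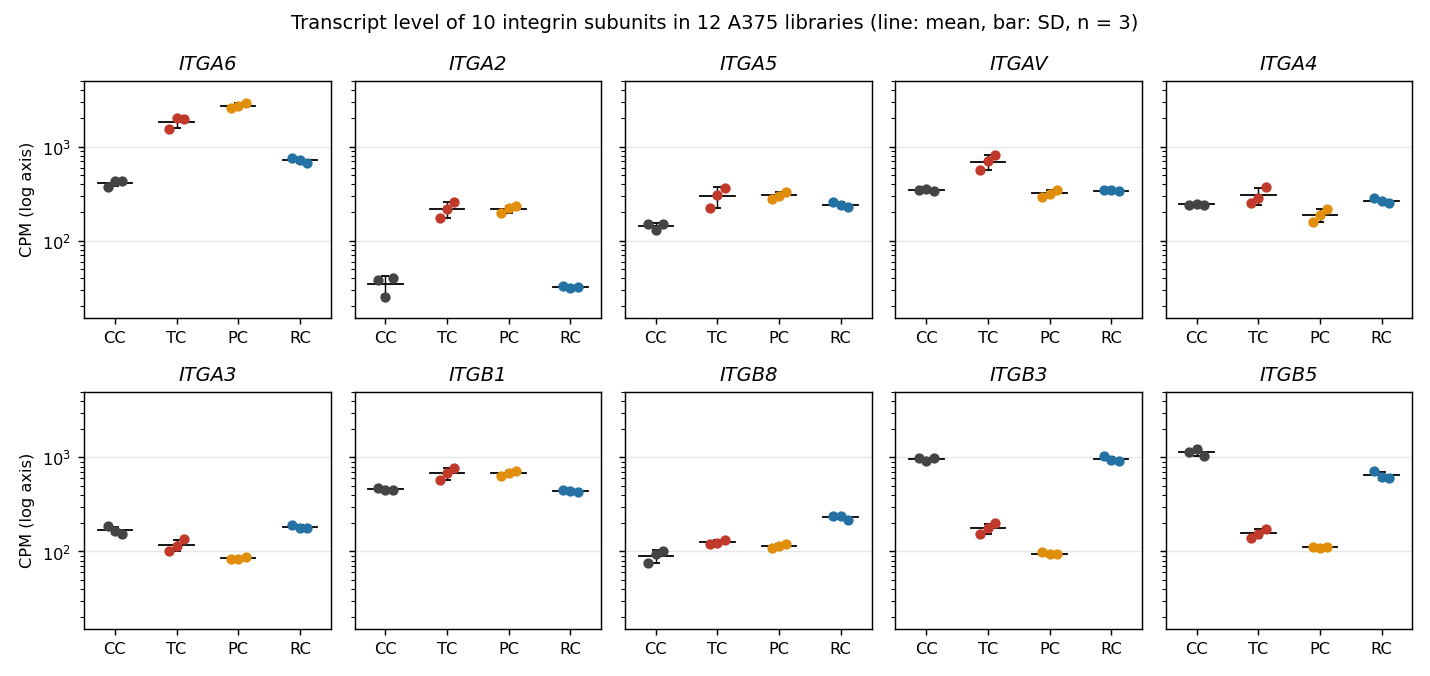
Level of each subunit in CPM (log axis) in the 12 libraries, with 3 points per group, a line at the mean and a bar for the SD (n = 3). ITGB3 and ITGB5 sit at or below 198 CPM in TC and PC and at or above 599 CPM in CC and RC, while ITGA6 reaches at most 429.9 CPM in CC and at least 1557 CPM in TC and PC.

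The laminin receptor subunits moved apart. ITGA6 (chr2:172427354-172506459, plus strand, GRCh38) stood at 378, 429 and 429.9 CPM in CC, 1557, 2009 and 1967 CPM in TC, 2589.9, 2709.9 and 2911 CPM in PC, and 763, 721 and 668 CPM in RC. The 4 groups did not overlap, in the order CC, RC, TC, PC. Against CC, ITGA6 was 4.47-fold higher in TC (log2 fold change 2.16, SE 0.10, adjusted p = 3.19e-09), 6.64-fold higher in PC (2.73, SE 0.10) and 1.74-fold higher in RC (0.80, SE 0.10, adjusted p = 1.08e-04). It was the subunit with the largest further rise after drug removal, with a log2 fold change of PC against TC of 0.57 (SE 0.10, adjusted p = 0.00127). From PC to RC it fell by 1.93 (SE 0.10).

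ITGA3 (chr17:50055968-50090481, plus strand) stood at 185, 166 and 155 CPM in CC, 102, 114 and 134 CPM in TC, 83.8, 82.8 and 87.9 CPM in PC, and 191, 178 and 179 CPM in RC. TC and PC lay below CC in all 3 libraries, and RC overlapped CC. The log2 fold change against CC was -0.53 in TC (SE 0.09, adjusted p = 3.13e-04) and -0.99 in PC (SE 0.10, adjusted p = 1.53e-06), and 0.11 in RC (SE 0.09, adjusted p = 0.370). The ratio of ITGA6 to ITGA3 counts, which needs no normalization, was 2.04 to 2.78 in CC, 14.7 to 17.6 in TC, 30.9 to 33.1 in PC and 3.74 to 4.04 in RC.

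ITGA2 (chr5:52989340-53094779, plus strand), the collagen receptor subunit, had the lowest CC level per kb of transcript of the 10. It stood at 38.4, 25.3 and 40.0 CPM in CC, 175, 219 and 258 CPM in TC, 196, 221 and 233 CPM in PC, and 33.2, 31.5 and 32.3 CPM in RC. TC and PC overlapped each other and lay far above CC, and RC fell inside the range of CC. ITGA2 was 6.30-fold higher in TC than in CC (log2 fold change 2.65, SE 0.17, adjusted p = 5.19e-08) and 6.27-fold higher in PC (2.65, SE 0.17). The difference of PC from TC was -0.01 on the log2 scale (SE 0.16), and from PC to RC it fell by 2.75 (SE 0.17, adjusted p = 3.52e-08).

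The fibronectin receptor ITGA5 (chr12:54395261-54419266, minus strand) stood at 149, 131 and 149 CPM in CC, 221, 307 and 363 CPM in TC, 280.1, 302 and 328 CPM in PC, and 259, 237 and 228 CPM in RC. All 9 libraries from cells that had received MAPKi lay above CC, and RC overlapped the lowest TC library. Against CC the log2 fold change was 1.06 in TC (SE 0.14, adjusted p = 3.50e-05), 1.08 in PC (SE 0.14) and 0.76 in RC (SE 0.14, adjusted p = 0.00163). From PC to RC it was -0.33 (SE 0.14, adjusted p = 0.0563), which missed the threshold. The adjusted p of that fall was 0.00484 without TC replicate 1 and 0.0225 without TC replicate 3.

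ITGAV (chr2:186590010-186680901, plus strand), the alpha chain of the vitronectin receptors, was called higher than CC in TC, and not in PC or RC. It stood at 345, 353 and 340 CPM in CC, 567, 699 and 818 CPM in TC, 292, 316 and 349 CPM in PC, and 346, 344 and 336 CPM in RC. TC lay apart from the other groups, which overlapped. The log2 fold change against CC was 1.01 in TC (SE 0.11, adjusted p = 5.04e-06), -0.12 in PC (SE 0.11, adjusted p = 0.361) and -0.02 in RC (SE 0.11, adjusted p = 0.926). From TC to PC it fell by 1.12 (SE 0.11, adjusted p = 2.44e-05).

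ITGA4 (chr2:181457202-181538940, plus strand) encodes the subunit whose calls against CC changed with the libraries used. It stood at 241, 249 and 239 CPM in CC, 250.6, 286 and 374 CPM in TC, 158, 190.0 and 216 CPM in PC, and 282, 263 and 255 CPM in RC. TC lay just above CC and PC below it, with no overlap, but the TC libraries spread widely. The log2 fold change in TC was 0.32 (SE 0.14, adjusted p = 0.0536), and without TC replicate 1 it was 0.45 (adjusted p = 0.00968). In PC it was -0.37 (SE 0.14, adjusted p = 0.0287). That adjusted p was 0.126 without PC replicate 1, 0.0620 without PC replicate 2, 0.0535 without CC replicate 1 and 0.0635 without CC replicate 2. Between TC and PC the log2 fold change of ITGA4 was -0.69 (SE 0.14), with an adjusted p of 0.00319.

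The shared beta chain ITGB1 (chr10:32887273-33005792, minus strand) rose in TC and PC, by less than 1.5-fold in the fit. It stood at 471, 447 and 453 CPM in CC, 577, 685 and 773 CPM in TC, 628, 681 and 722 CPM in PC, and 453, 443 and 427 CPM in RC. TC and PC lay above CC and overlapped each other, while RC overlapped CC. The log2 fold change against CC was 0.57 in TC (SE 0.09, adjusted p = 1.48e-04), 0.57 in PC (SE 0.09) and -0.05 in RC (SE 0.09, adjusted p = 0.692).

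ITGB3 (chr17:47253827-47313743, plus strand), the beta chain of the vitronectin and fibrinogen receptor, stood at 979.5, 920.0 and 975 CPM in CC. It stood at 154, 176 and 198 CPM in TC, 97.8, 92.9 and 93.2 CPM in PC, and 1029, 940.4 and 920.2 CPM in RC. TC and PC were far below CC with no overlap, PC was below TC, and RC overlapped CC. ITGB3 was 5.44-fold lower in TC than in CC (log2 fold change -2.44, SE 0.09, adjusted p = 4.16e-10) and 10.1-fold lower in PC (-3.34, SE 0.09). Between TC and PC the log2 fold change was -0.90 (SE 0.08, adjusted p = 1.80e-05), and it was 10.2-fold higher in RC than in PC (3.35, SE 0.09). Its log2 fold change in RC against CC was 0.01 (SE 0.08, adjusted p = 0.957).

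ITGB5 (chr3:124761948-124901418, minus strand), the other large vitronectin receptor beta chain, stood at 1137, 1215 and 1041 CPM in CC. It stood at 141, 154 and 174 CPM in TC, 113, 109.5 and 111 CPM in PC, and 715, 614 and 599 CPM in RC. The 4 groups did not overlap, and RC lay between CC and the treated groups. ITGB5 was 7.25-fold lower in TC (log2 fold change -2.86, SE 0.10, adjusted p = 3.04e-10) and 10.2-fold lower in PC (-3.35, SE 0.10) than in CC. Unlike ITGB3, it was also lower in RC than in CC (log2 fold change -0.82, SE 0.09, adjusted p = 6.55e-05). That fall did not pass the 1.5-fold test with all libraries, and passed it without CC replicate 3, TC replicate 3 or RC replicate 1 (1.5-fold adjusted p 0.0357, 0.0463 and 0.0348). The ratio of ITGB3 to ITGB5 counts was 0.757 to 0.937 in CC and 1.44 to 1.53 in RC.

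ITGB8 (chr7:20330702-20415754, plus strand), whose pair with ITGAV binds latent TGF-beta, had its highest level last. It stood at 74.6, 93.7 and 100.4 CPM in CC, 121, 124 and 131 CPM in TC, 109, 113 and 121 CPM in PC, and 239, 241 and 217 CPM in RC. The RC libraries lay above all 9 others. The log2 fold change against CC was 0.49 in TC (SE 0.10, adjusted p = 6.85e-04), 0.35 in PC (SE 0.10, adjusted p = 0.00633) and 1.37 in RC (SE 0.10, adjusted p = 7.01e-06). From PC to RC it rose by 1.02 (SE 0.10, adjusted p = 1.28e-06).

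**Figure D2:**
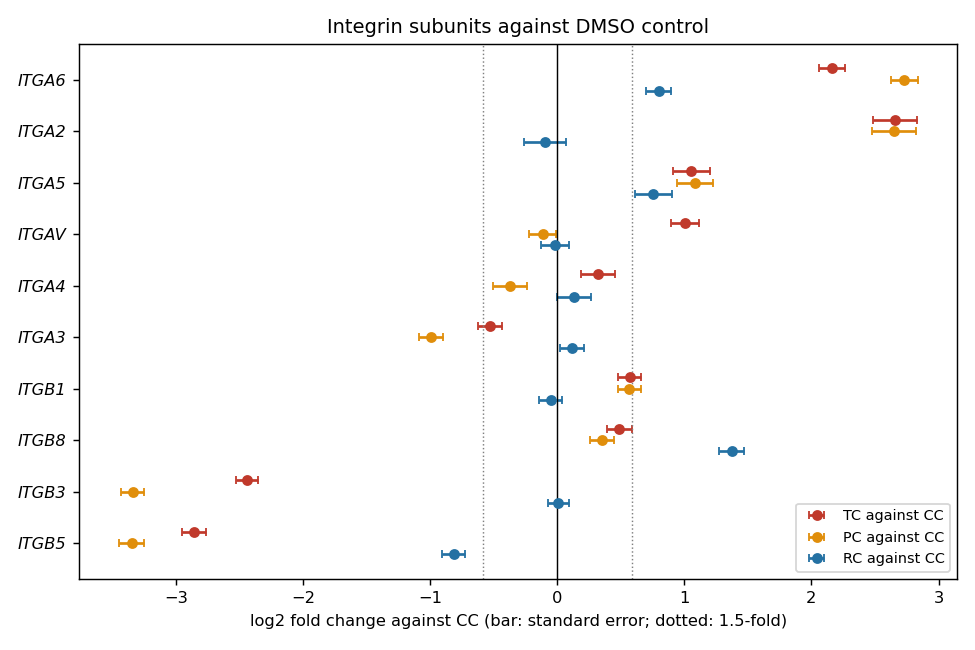
Log2 fold change of each subunit in TC, PC and RC against CC, with the standard error as a bar and dotted lines at 1.5-fold. ITGB3 lies at -2.44 and -3.34 in TC and PC and at 0.01 in RC, and ITGB8 lies farthest to the right in RC, at 1.37.

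From TC to PC, the first 2 days without drug, ITGA6 was the 1 subunit that rose (background 12.2%), and 5 fell (ITGA3, ITGA4, ITGAV, ITGB3 and ITGB5, background 12.5%). Beyond 1.5-fold, 0 of 10 rose by edgeR (background 2.33%), and 0 at an unadjusted p under 0.05 or by DESeq2, and 2 fell (ITGAV and ITGB3, background 1.15%). The 1.5-fold call of ITGB3 was lost without PC replicate 2 (1.5-fold adjusted p 0.0516). From PC to RC, 5 rose (ITGA3, ITGA4, ITGB3, ITGB5 and ITGB8, background 35.7%) and 3 fell (ITGA2, ITGA6 and ITGB1, background 34.2%). Beyond 1.5-fold, 4 rose (ITGA3, ITGB3, ITGB5 and ITGB8, background 20.2%) and 2 fell (ITGA2 and ITGA6, background 18.5%).

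Within TC, PC and RC, the subunits tended to be highest in the same replicate, but not within CC, where replicates 1, 2 and 3 were highest for 4, 3 and 3 subunits. TC replicate 1 was the lowest TC library for 10 of 10 subunits and TC replicate 3 the highest for 9 of 10. Over all genes tested these libraries were lowest for 38.3% and highest for 38.5%. PC replicate 3 was the highest PC library for 8 of 10 subunits, and RC replicate 1 the highest RC library for 9 of 10. Over all genes tested each of these 2 libraries was highest for 36.6%. The part of these libraries in the integrin spread was not tested beyond leaving each out in turn.

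To compare levels between genes, CPM were divided by the length in kb of the canonical transcript (GENCODE v44). In CC the order per kb was ITGB5 at 255 ± 19.7 CPM per kb (SD, n = 3), ITGB3 at 161 ± 5.59, ITGB1 at 122 ± 3.39, ITGA6 at 70.9 ± 5.15 and ITGAV at 49.1 ± 0.956. ITGA4, ITGA3 and ITGA5 followed at 35.9, 34.5 and 33.7 CPM per kb, where ITGA3 overlapped both of the others and ITGA4 lay above ITGA5, then ITGB8 at 9.98 and ITGA2 at 4.41. ITGA6 led in TC at 317 ± 43.0 CPM per kb and in PC at 471 ± 27.9, followed by ITGB1 at 182 ± 26.3 and 181 ± 12.6. In RC, ITGB3 at 162 ± 9.76 and ITGB5 at 145 ± 14.2 led and overlapped, and ITGA6 at 123 ± 8.22 overlapped ITGB1 at 118 ± 3.45.

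Lower in the order, ITGB3 stood at 29.6 ± 3.73 CPM per kb in TC and overlapped ITGA2, ITGA3 and ITGB5, and in PC it stood at 15.9 ± 0.465, above ITGB8 alone of the 10. ITGA2 in PC, at 27.6 ± 2.42 CPM per kb, overlapped ITGA4 and ITGB5. The order depends on the length used. With the union of all annotated exons in place of the canonical transcript, ITGA6 passed ITGB1 in CC (61.7 against 31.4 CPM per kb), ITGB3 stood above ITGA3 as well as ITGB8 in PC (13.9 against 8.66), and the RC mean of ITGA6 was above that of ITGB5 (107 against 98.7, overlapping). ITGB5 and ITGB3 still led CC and ITGA6 still led TC and PC.

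Per kb, the sum over the 4 beta messages was lower and the sum over the 6 alpha messages higher in TC and PC than in CC, although ITGB1 and ITGB8 rose and ITGA3 fell. The beta sum was 548.5 ± 15.1 CPM per kb in CC, 260.4 ± 34.3 in TC, 235 ± 12.6 in PC and 451 ± 27.9 in RC, and the alpha sum was 228 ± 0.988, 582 ± 90.9, 660.0 ± 44.6 and 310 ± 15.8 (SD, n = 3). The alpha to beta ratio was 0.409 to 0.432 in CC, 2.13 to 2.34 in TC, 2.78 to 2.86 in PC and 0.676 to 0.697 in RC. The groups did not overlap, and with the exon union the ratio was 0.397 to 0.427, 3.80 to 4.26, 5.97 to 6.32 and 0.707 to 0.736.

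ITGB1 went from 22.3% ± 0.793 of the beta sum in CC to 69.7% ± 1.05 in TC and 77.1% ± 1.28 in PC, and was 26.2% ± 0.937 in RC (SD, n = 3). With the exon union it went from 8.94% in CC to 44.4% in TC, 54.7% in PC and 10.6% in RC. ITGA6 made up 31.0% ± 2.13 of the alpha sum in CC, 54.6% ± 2.66 in TC, 71.3% ± 0.646 in PC and 39.8% ± 0.730 in RC. These shares are of the 10 messages examined, not of receptor at the cell surface, and give no test.

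**Figure D3:**
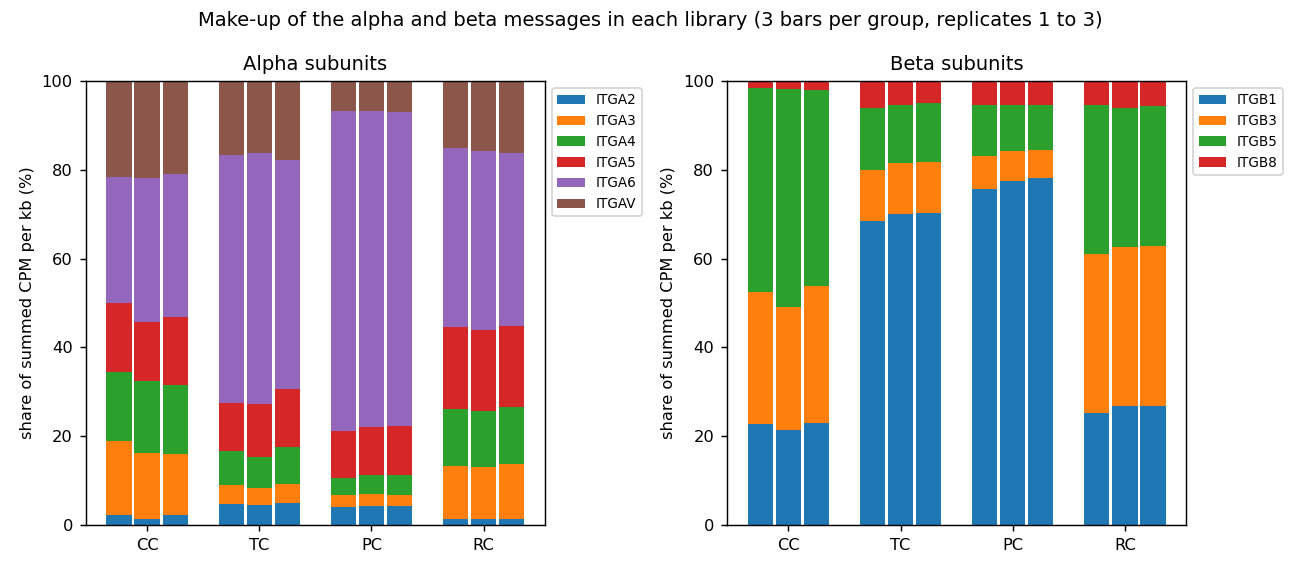
Share in % of each alpha subunit (left) and beta subunit (right) in the summed CPM per kb of its pool, with the 3 replicates of each group as bars. ITGB1 fills 68.5 to 70.4% of the beta pool in TC and 21.4 to 22.9% in CC, and ITGA6 fills 70.8 to 72.1% of the alpha pool in PC.

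The ratio of ITGB1 to ITGB3 counts was 0.465 to 0.486 in CC, 3.74 to 3.90 in TC, 6.42 to 7.75 in PC and 0.440 to 0.471 in RC. The ratio of ITGAV to ITGB5 counts was 0.290 to 0.326 in CC, 4.03 to 4.71 in TC, 2.59 to 3.16 in PC and 0.483 to 0.560 in RC. Both ratios were apart from CC in all libraries of TC and PC. Only the ITGB1 to ITGB3 ratio of these 2 overlapped CC in RC.

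Of the 16 other integrin subunit genes, 10 were tested, and in TC against CC 4 were higher and 5 lower, against 33.2% and 34.7% of all genes (median log2 fold change -0.45, against -0.02). ITGA1, another collagen receptor subunit, was 22.7 ± 1.58 CPM in CC and 66.5 ± 13.3 CPM in TC (log2 fold change 1.55, adjusted p = 2.51e-07) and 77.5 ± 3.28 CPM in PC. ITGA10, also a collagen receptor subunit, was 45.2 ± 9.04 CPM in CC, 0.541 ± 0.179 CPM in TC and 17.9 ± 1.33 CPM in RC (-6.35 in TC, adjusted p = 4.50e-10). The leukocyte subunit gene ITGAX was 20.4 ± 6.52 CPM in CC and 3.95 ± 1.11 CPM in TC (-2.37), and stayed low in RC at 4.67 ± 0.440 CPM. ITGA9 stood at 0.395, 11.7 and 0.360 CPM in CC, so its CC mean comes mostly from replicate 2, and its adjusted p in TC was 0.00831. ITGB4, the other partner of ITGA6, was at most 3.71 CPM in any library.

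Of 27 genes for integrin ligands, 22 were tested, and in TC 8 were higher and 10 lower, against 33.2% and 34.7% of all genes (median -0.30, against -0.02). THBS1, which encodes thrombospondin, was 161 ± 8.80 CPM in CC, 1116 ± 175 in TC, 2071 ± 197 in PC and 306 ± 25.9 in RC. EDIL3, a secreted RGD protein, rose by 2.42 on the log2 scale in TC (adjusted p = 2.26e-05), and TGFB1 by 1.99 (adjusted p = 9.32e-09). The basement membrane genes LAMA1, COL4A1 and COL4A2 fell by 4.19, 3.09 and 2.94 in TC. In RC against CC their log2 fold changes were -0.49 for LAMA1 (adjusted p = 0.00913), 0.15 for COL4A1 (adjusted p = 0.102) and -0.19 for COL4A2 (adjusted p = 0.0467), and 1 ligand gene of 22 was higher and 11 lower, against 18.2% and 19.1% of all genes.

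Adaptors and kinases that couple integrins to actin are counted next. Of 35 tested of 38, 21 were higher and 6 lower in TC, against 33.2% and 34.7% of all genes (median 0.46, against -0.02). In PC, 22 were higher and 8 lower, against 33.2% and 35.9% (median 0.55, against -0.04). The tensin gene TNS3 went from 131 ± 11.3 to 971 ± 31.2 CPM (log2 fold change 2.90, adjusted p = 2.96e-11), and KANK2 from 29.8 ± 3.52 to 259 ± 17.4 CPM (3.12). TNS1 was at 0.150 ± 0.0444 CPM in CC and 6.63 ± 3.28 CPM in TC (5.43). KANK1, FERMT1 (a kindlin gene) and ACTN1 (an actin crosslinker) fell by 2.78, 3.51 and 1.41. FERMT1 was low before treatment, at 8.61 to 12.5 CPM in CC. FERMT2, another kindlin gene, went the other way, at 60.04 to 70.6 CPM in CC, 117 to 149 CPM in TC and 185 to 201 CPM in PC. The fall of FERMT1 is therefore not a fall of kindlin messages as a whole.

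Of 16 membrane partners, 9 were higher and 3 lower in TC, against 33.2% and 34.7% of all genes (median 0.35, against -0.02). The syndecan gene SDC4 was 76.7 ± 6.71 CPM in CC and 318 ± 66.2 in TC (log2 fold change 2.05), and the tetraspanin gene CD151, a laminin receptor partner, was 168 ± 26.3 and 606 ± 125 CPM (1.85). TGM2 rose by 1.75 (adjusted p = 1.41e-09). CSPG4, a melanoma proteoglycan, was 1695 ± 394 CPM in CC and 114 ± 26.6 in TC (-3.89), and CD82 and CAV1 fell by 1.32 and 0.83. In RC against CC, 2 of the 16 were higher and 6 lower, against 18.2% and 19.1% of all genes.

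**Figure D4:**
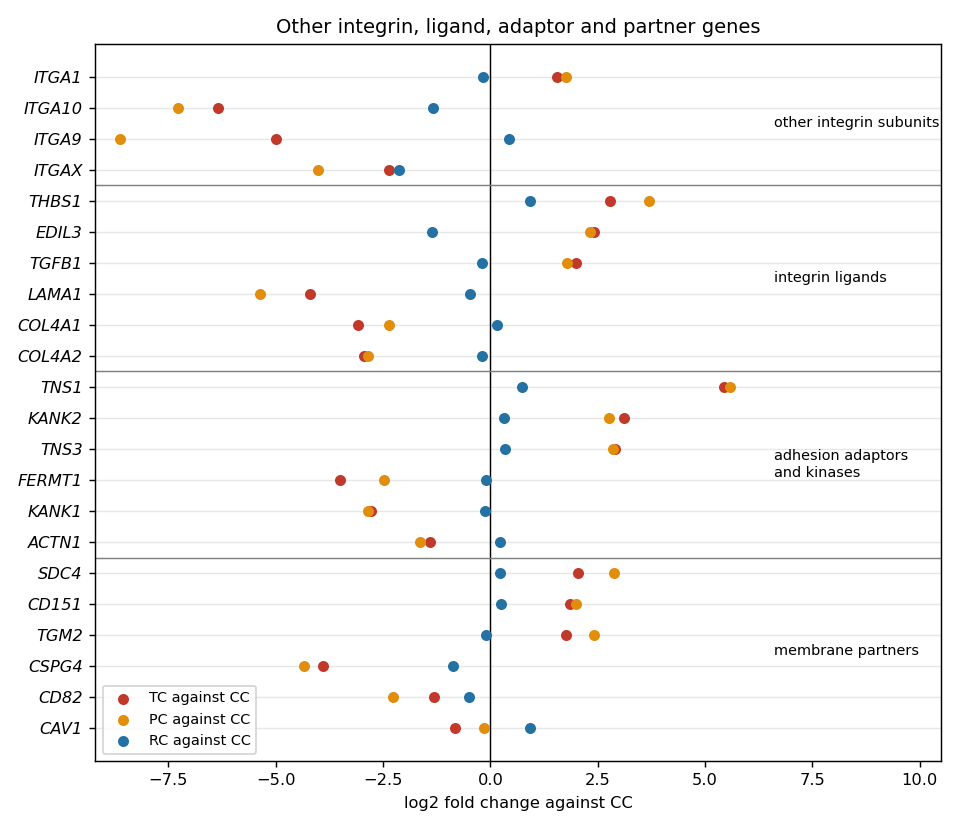
Log2 fold change against CC in TC, PC and RC for the genes of the other integrin, ligand, adaptor and partner lists with the largest changes in TC, without ITGB4 and FERMT2. THBS1, TNS3 and SDC4 lie to the right and LAMA1, KANK1 and CSPG4 to the left in TC and PC, and the CC mean behind the ITGA9 points comes mostly from replicate 2.

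The genes whose log2 CPM followed a subunit most closely over the 12 libraries were described by Pearson's r, with 4 group means behind each r. THBS1, LRRC15 and LYPD1 followed ITGA6 (r 0.997, 0.997 and 0.996). USP11, ZBTB7B and RAB31 followed ITGA2 (0.997, 0.996 and 0.996), and ABHD2, GALNT7 and XXYLT1 followed ITGA5 (0.985, 0.971 and 0.970). LHFPL2, AKAP12 and MOV10 followed ITGAV (0.983, 0.975 and 0.973). CLCN5, HAGLR and PLS1 followed ITGB3 (0.997, 0.996 and 0.996), and SOD3, LOXL4 and PRXL2A followed ITGB5 (0.997, 0.997 and 0.995). Among the 10, ITGB3 and ITGB5 were closest to each other (r 0.973), and ITGA6 and ITGB5 were farthest apart (r -0.985).

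The promoters of a riser that returned to control, a riser that stayed up and the subunit with the largest fall in TC are shown to compare their letters. For 8 of the 10 (not ITGA3 and ITGB3), the 250 bases before the canonical start were read from RefSeq sequence on GRCh38.p14. Printed stretches leave out bases that an exon of the same gene covers in GENCODE v44. Capitals mark GC boxes (GGGCGG or its reverse complement) and the TEAD motif (GGAATG, in ITGA5). ITGA2 is on the plus strand at chr5:52989102-52989339, ITGA5 on the minus strand at chr12:54419267-54419516, and ITGB5 on the minus strand at chr3:124887366-124887599, where longer transcripts have an intron.
ITGA2: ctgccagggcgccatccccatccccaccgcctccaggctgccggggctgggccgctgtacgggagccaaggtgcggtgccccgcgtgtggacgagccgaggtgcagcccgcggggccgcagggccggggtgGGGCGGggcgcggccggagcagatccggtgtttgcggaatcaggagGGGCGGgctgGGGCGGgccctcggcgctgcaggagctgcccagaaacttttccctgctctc
ITGA5: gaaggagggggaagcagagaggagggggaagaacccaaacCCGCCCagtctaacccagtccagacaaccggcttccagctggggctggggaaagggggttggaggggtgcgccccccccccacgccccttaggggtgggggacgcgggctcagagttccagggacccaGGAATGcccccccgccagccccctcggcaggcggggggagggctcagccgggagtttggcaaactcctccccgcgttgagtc
ITGB5: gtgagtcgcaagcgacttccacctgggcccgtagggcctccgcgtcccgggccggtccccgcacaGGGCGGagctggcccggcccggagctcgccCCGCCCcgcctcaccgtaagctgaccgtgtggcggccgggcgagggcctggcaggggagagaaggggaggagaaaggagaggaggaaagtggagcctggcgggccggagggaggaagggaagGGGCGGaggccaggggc

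Both strands of the 8 canonical windows were searched for 6 motifs, none of which contains another. The AP-1 motif (TGANTCA), the ETS motif (CCGGAAGT), the E-box (CACGTG) and the M-box (CATGTG) were in 0 of 8 windows, against 6.57%, 3.42%, 6.34% and 9.42% of all promoter windows of this length. The TEAD motif was in 2 of 8 (ITGA5 and ITGB1, against 11.9%), and the GC box in 6 of 8 (against 42.6%). In the 5 windows at other listed starts of these genes, ITGB5 held an ETS motif at 1 start and ITGA6 an E-box at 1 start. The GC box was in 1 of 5 (ITGB5), and the AP-1, TEAD and M-box motifs were in 0 of 5. The G and C share of the 8 windows was 70.0 to 78.4%, against a median of 58.0% over all. A match is a run of letters, and binding was not measured.

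The study concerns how codon content relates to mRNA changes under MAPKi, so the codons of the subunits were counted in the canonical coding sequence. AAA, GAA, GAT and AAT, the codons for lysine, glutamate, aspartate and asparagine that end in A or T, together made up 14.1% of ITGA2, 14.6% of ITGA6, 14.7% of ITGA4, 17.5% of ITGB1, 15.3% of ITGB8 and 12.5% of ITGAV. They made up 3.90% of ITGA3, 4.77% of ITGA5, 8.76% of ITGB3 and 6.63% of ITGB5, against a median of 9.13% over 12725 genes. The paper reports these codons as enriched in mRNAs lowered by MAPKi after a shorter treatment. It also reports them as enriched in mRNAs lowered both under MAPKi and in persister cells. Here the 3 that fell in TC were below the median. In PC these 3 and ITGA4 were called lower, and ITGA4, at 14.7%, was above the median. Of the subunits called higher in TC, ITGA5 alone was below it, with the second lowest share of the 10. No test was made of this. Codons for aspartate and glutamate of any spelling made up 10.3 to 13.5%, against a median of 11.9%. ITGB3, which fell, was highest, followed by ITGB1, which rose, at 13.2%, while ITGA3, which fell, stood at 10.4%.

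Strandedness of the counting was not stated, and without it reads of a subunit and of a gene on the opposite strand cannot be told apart. Of the opposite-strand genes that overlap a subunit and are listed in the table, EFCAB13-DT (at ITGB3) had the most counts, 1822 over the 12 libraries, then ITGB8-AS1 with 357 and ITGB1-DT with 196.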

How the data were processed

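RNA was measured in 12 libraries of A375 cells (CC, TC, PC and RC, 3 each), grouped by the sample labels. Per the labels, cytoplasmic RNA was extracted, while the study's methods state total RNA; rRNA was depleted and libraries were sequenced as read pairs on an Illumina NovaSeq. The authors trimmed reads (fastp 0.20.1), aligned them to GRCh38.p13 (HISAT2 2.2.1) and counted them per gene with HTSeq 0.13.5, and deposited raw counts with no normalization. Strandedness and treatment of reads with several alignments were not given in the sources used here, and both could shift counts of overlapping genes. Replicates are separate samples by title, and nothing stated that they came from independent experiments, so p-values measure the spread between these samples, which may be technical.

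Genes with a mean scaled count of at least 10 were kept (15916 of 44659) and TMM normalized. The 12 libraries entered a joint quasi-likelihood fit with 4 group means, run with edgeR 4.0.16 (R 4.3.3). It left 8 residual degrees of freedom, and the common biological coefficient of variation was 0.182. Tests were glmQLFTest and, for changes beyond 1.5-fold, glmTreat, adjusted by Benjamini-Hochberg over all genes. Standard errors were derived from the F statistic. The procedure was tested on simulated data. Alternatives were DESeq2 1.42.0, other scaling and filters, the 2 groups compared alone, a replicate block and leaving out each library. No 2 libraries agreed within sampling noise.

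The subunits and lists were chosen with earlier results of these data known. All 10 subunits are named; of each other list, up to 3 genes with the largest rise and fall in TC against CC are named among those beyond 1.5-fold, provided that the mean scaled count reached 100 and TC and CC libraries did not overlap, and for each subunit beyond 1.5-fold in TC, the 3 genes with the highest r. ITGB4 and FERMT2 were added after their values were seen. Coordinates, lengths and codons come from GENCODE v44, which was not the annotation used for counting.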

Additional observations from a re-analysis of the deposited data

Results flagged for a closer look

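The level of ITGAV and of ITGB3 differed between the end of treatment and day 2 off drug by the test of PC against TC itself, with TC and PC libraries that did not overlap. For ITGAV the log2 fold change of PC against TC was -1.12, with TC above CC and PC overlapping CC. For ITGB3 it was -0.896, with both TC and PC below CC. The cause was not tested.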

How the results depend on the processing

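The 10 subunits in 5 comparisons gave 50 values, each under 18 alternatives (900 in all): 885 kept their direction and their side of the threshold, 4 lost a call, 11 gained one and 0 reversed. The changes concern ITGA4 (TC and PC against CC) and ITGA5 (RC against PC). ITGA4 in TC was called under DESeq2 (0.33, adjusted p = 0.0286), with library totals (0.30, adjusted p = 0.0482), with a filter on summed counts (0.34, adjusted p = 0.0418) and without TC replicate 1, PC replicate 1 or PC replicate 3; ITGA5 was called under DESeq2 (adjusted p = 0.0274), in the fit of the 2 groups alone (adjusted p = 0.00207) and without TC replicate 1 or 3. Leaving out libraries moved the number of subunits beyond 1.5-fold in RC against CC between 0 and 1 for falls (ITGB5) and between 1 and 2 for rises (ITGA6, without TC replicate 1), and in PC against TC between 1 and 2 for falls. The cause was not tested.

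With a replicate block, ITGA4 in TC against CC was 0.30 (adjusted p = 0.0494), which took the number of subunits higher from 6 to 7, and no other call on a subunit changed. Same-numbered libraries correlated at -0.0373 to 0.155 in their deviations from group means, with 2 of 18 pairs over 0.1. By number, TC correlated with PC at 0.155, 0.0679 and 0.124, against at most 0.00343 for unlike numbers. CC with TC gave 0.0393, 0.0519 and 0.0807, against at most 0.0186, while pairs with RC showed no such gap. As 8 of 12 libraries were closest to one of their own number, weak pairing may be present. The main fit did not use the numbers. With 3 libraries per group and 8 residual degrees of freedom, small changes such as those of ITGA4 lie near the limit of what could be called.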
